A study of Mus musculus with 67 samples.

Results

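Il6-positive passage 2 cells are the cultured mouse aortic smooth muscle cells at passage 2 whose deposited value for Il6, the gene of the cytokine interleukin-6, was at least 10. They numbered 13 of the 45 passage 2 cells, and the other 32, with a value below 10, are called Il6-negative here. Il6 itself chose the cells, so its values are given as a description and every comparison between the sets is descriptive. The whole study held 67 single cells, 22 at passage 1 and 45 at passage 2.

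By their labels the cells were vascular smooth muscle cells (VSMCs), grown out of the descending aorta, and the donor mice were male C57Bl6 adults, 3 to 4 months old. They were grown in DMEM with 10% fetal bovine serum and 1% penicillin and streptomycin in a CO2 incubator. The first culture stood undisturbed for 5 days. Trypsin was then used to lift passage 1 cells, and their subculture gave passage 2. Single cells were captured on a Fluidigm C1 microfluidic system, and 1 Nextera XT RNA library was made per cell. No treatment, allele or stimulus is named for any cell, and both sets share the same age, strain, medium and passage. The labels name no animal, dish or capture chip, so the 45 cells count as 1 sample. No test between the sets was therefore made and no p-value is given. Trypsin-detached cells in serum are a culture model and not the vessel wall.

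Interleukin-6 is a secreted cytokine that vascular smooth muscle cells make when interleukin-1, tumour necrosis factor or bacterial products act on them. These stimuli act through receptor adaptors on NF-kB, a family of dimeric transcription factors held in the cytoplasm by IkB proteins. NF-kB, AP-1 and C/EBP factors act on the promoters of Il6 and of several chemokines, and proteins such as Zfp36 and Regnase or Roquin family members shorten the life of their mRNAs. Interleukin-6 signals through a receptor alpha chain, Il6ra, and the shared chain Il6st (gp130), to JAK kinases and STAT3. Cells without Il6ra can respond to interleukin-6 bound to a soluble form of that receptor.

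The promoters of Il6, of the neutrophil chemokine Cxcl1 and of the NF-kB target Tnfaip2 are shown because they held a match to the NF-kB consensus, among the promoters of 6 genes described below that were searched. Each run is the 250 bases before the gene's start on the plus strand in RefSeq's GRCm38.p6, and capitals mark motif matches found on either strand. The Il6 run is chr5:30012864-30013113, the Cxcl1 run chr5:90890995-90891244 and the Tnfaip2 run chr12:111442411-111442660.
Il6: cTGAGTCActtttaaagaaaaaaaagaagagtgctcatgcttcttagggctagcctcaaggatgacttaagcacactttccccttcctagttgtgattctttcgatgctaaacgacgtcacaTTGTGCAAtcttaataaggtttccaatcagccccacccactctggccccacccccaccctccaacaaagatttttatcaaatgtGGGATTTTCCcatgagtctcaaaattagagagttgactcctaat
Cxcl1: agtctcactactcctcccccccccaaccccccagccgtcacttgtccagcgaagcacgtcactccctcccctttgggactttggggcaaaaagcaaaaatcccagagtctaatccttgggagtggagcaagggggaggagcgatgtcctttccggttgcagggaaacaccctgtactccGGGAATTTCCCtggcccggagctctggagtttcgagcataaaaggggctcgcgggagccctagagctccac
Tnfaip2: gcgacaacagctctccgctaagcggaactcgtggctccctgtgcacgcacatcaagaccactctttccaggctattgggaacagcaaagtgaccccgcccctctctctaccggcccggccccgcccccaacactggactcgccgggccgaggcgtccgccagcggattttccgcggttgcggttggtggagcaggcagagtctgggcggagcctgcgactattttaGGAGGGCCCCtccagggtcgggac

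The motifs searched on both strands were the NF-kB consensus, the AP-1 motif TGANTCA, the CRE motif TGACGTCA, the C/EBP motif TTGNGCAA and the TATA box letters TATAAA. The Il6 promoter held TGANTCA at 249 to 243 bases before the start, TTGNGCAA at 128 to 121 bases and the NF-kB consensus at 44 to 35 bases. The Cxcl1 promoter held the NF-kB consensus on both strands in overlapping positions, between 71 and 61 bases before the start. The Tnfaip2 promoter held it on the minus strand at 24 to 15 bases, and the GENCODE M21 model of Tnfaip2 starts at 111442469, inside this run. Of 32851 RefSeq promoters of this length, 7.25% held the NF-kB consensus, 6.75% TGANTCA, 1.55% TGACGTCA, 2.61% TTGNGCAA and 12.4% TATAAA. Of 10 genes looked for, 6 were in the promoter table. The other 3 of these, F3, Cxcl12 and Il6ra, held no NF-kB consensus, F3 held TGANTCA at 2 positions, and Cxcl12 and Il6ra held none of the motifs. These matches describe letters in the window and not binding.

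The measured value is a normalized count, the reads of a gene in a cell divided by a scaling factor of that cell. Values compare cells for 1 gene and do not compare genes with each other, because they are not divided by gene length. Each cell had 548419 to 1509589 reads in genes. The median was 871924 reads in Il6-positive cells and 885952 in Il6-negative cells, and the median number of genes with a read was 7423 and 7199.5. Mitochondrial genes took a median of 4.59% and 5.43% of reads. Acta2 and Tagln, smooth muscle actin and transgelin, were at or above 10 in all 13 and all 32 cells. Myh11, smooth muscle myosin heavy chain, was at or above 10 in 6 of 13 and 12 of 32 cells. Of 12 macrophage markers, the leukocyte gene Ptprc and Adgre1, C1qa, C1qb, Mrc1, Tyrobp, Fcer1g and Cd14 had no read in any of the 45 cells. Of the 4 other macrophage markers, Csf1r was at or above 10 in 2 positive and 5 negative cells, and the summed value of the list ran from 0 to 83.5 and from 0 to 295. Cells 8 and 11, both Il6-negative, had 8 and 7 of 10 endothelial markers at 10 or above.

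Il6 (ENSMUSG00000025746) lies on chromosome 5 from 30013114 to 30019981 on the plus strand of GRCm38. Its value ranged in the 13 positive cells from 16.8 to 1016, with a median of 142 and a mean of 349 ± 364 (SD, n = 13 cells). These values rest on 18 to 996 reads per cell and on 4514 reads in all. In the 32 negative cells 24 had no Il6 read and 8 had 1 or 2, 9 reads in all, so that the negative median was 0 and the maximum 1.96. The values next to the threshold were 16.8 in cell 36 and 29.1 in cell 35 on the positive side, and 1.96 in cell 43 on the negative side. No cell lay between 1.96 and 16.8. Cells at or above 10 were 28.9% of the passage (exact Clopper-Pearson 95% interval 16.4% to 44.3%), and cells with any Il6 read were 21 of 45, or 46.7%. Such intervals cover counting error only. At passage 1, 2 of 22 cells reached 10, or 9.09% (interval 1.12% to 29.2%), with values of 22.7 and 11.3. The intervals of the passages overlapped, and with 1 sample per passage the difference was not tested.

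**Figure D1:**
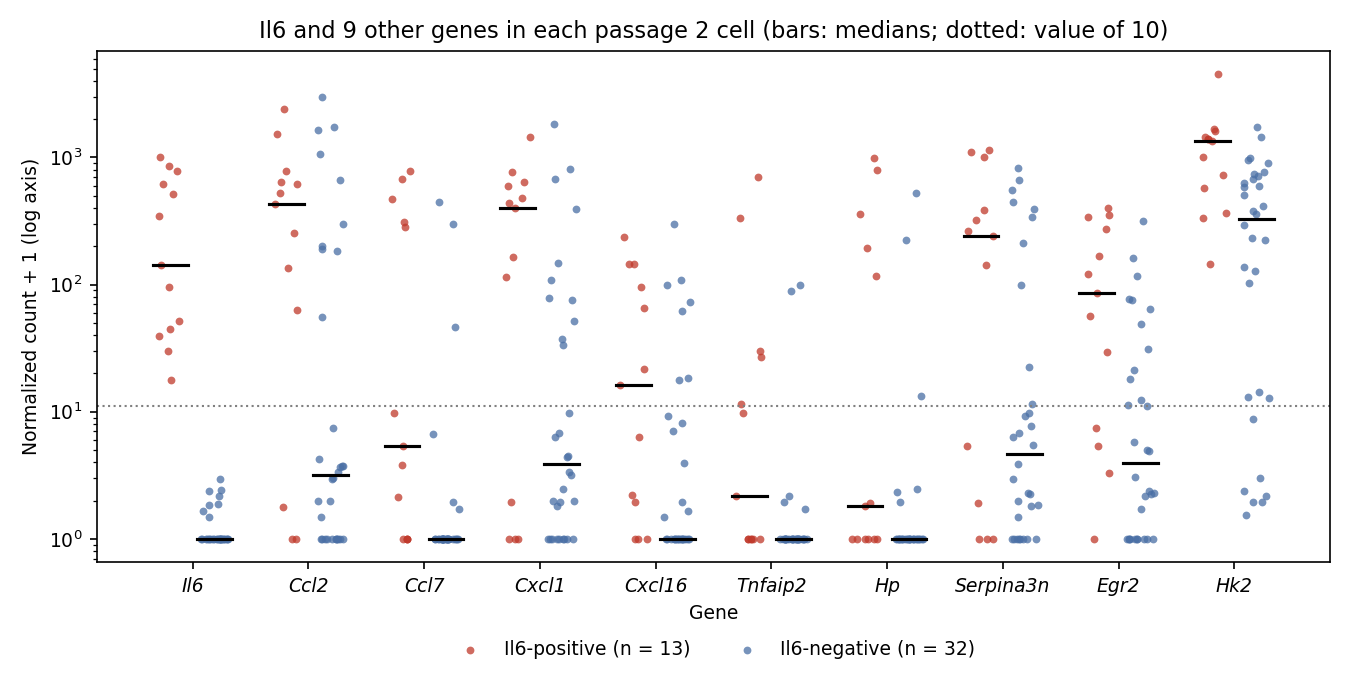
Normalized count plus 1 on a log axis for Il6 and 9 other genes in each passage 2 cell, with Il6-positive cells (n = 13) in red and Il6-negative cells (n = 32) in blue. Black bars are medians and the dotted line marks a value of 10. Only Il6, which defined the sets, separates them, and all other genes shown overlap between the sets.

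Of the genes with a mean of at least 10 over the 45 cells and a read in at least 25% of them, 7447 other than Il6 were compared. For each, the log2 ratio is that of the mean plus 1 in positive cells over the mean plus 1 in negative cells, so differences of genes with low values come out too small. A gene is called higher where the log2 ratio is at least 1 and the positive cell has the higher value in at least 70% of positive-negative cell pairs, with ties shared equally between the sets. It is called lower at a ratio of at most -1 and at most 30% of pairs. By this rule 110 genes (1.48%) were called higher and 87 genes (1.17%) lower in Il6-positive cells, and the median log2 ratio of all genes compared was -0.11. Of the 109 genes called higher that have a symbol, 43 were called whichever cell was left out, and of the 87 called lower, 53.

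**Figure D2:**
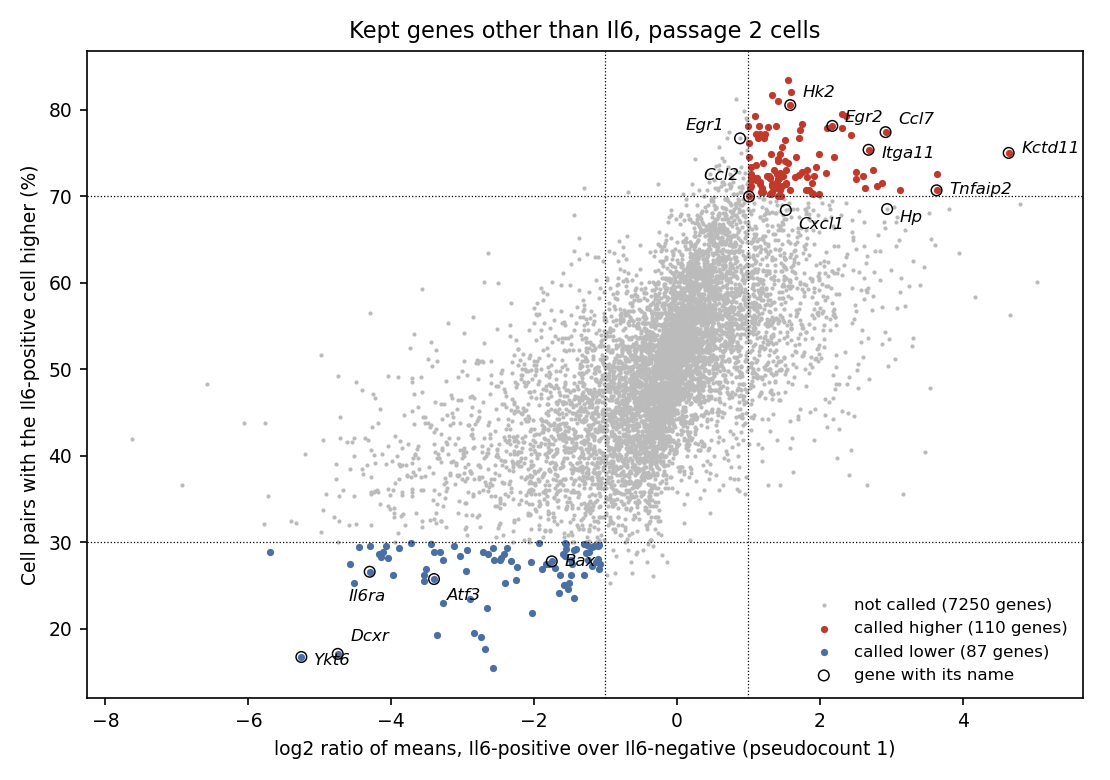
Each point is 1 of 7447 genes, with the log2 ratio of means on the x axis and the percentage of cell pairs in which the Il6-positive cell was higher on the y axis. Dotted lines mark the call limits, red points the 110 genes called higher and blue points the 87 called lower. Ccl7 and Tnfaip2 lie among the called genes, and Cxcl1 and Hp lie just below the 70% line.

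Chemokines, secreted proteins that draw leukocytes, were the inflammatory list with the highest median. All 5 compared members had a ratio above 0, 2 of them were called higher, and the list median was 1.32. With no filter on the genes, the list median was 0.77. Another 20 of the 25 listed chemokines were below the filter, and 11 of the 25, among them Ccl3, Ccl4, Ccl5 and Cxcl10, had no read in any passage 2 cell.

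Ccl7, a monocyte chemokine (chromosome 11, 82045712 to 82047525, plus strand), ranged in positive cells from 0 to 779 with a median of 4.39, and in negative cells from 0 to 447 with a median of 0. It was at or above 10 in 5 of 13 positive cells (38.5%) and in 3 of 32 negative cells (9.38%). It had a read in 9 of 13 positive and 6 of 32 negative cells (18.75%). The 25% of cells with a read that the filter asks for was thus reached only through the positive cells. The means were 195 ± 285 (SD, n = 13) and 24.9 ± 93.5 (SD, n = 32), a log2 ratio of 2.92 with the positive cell higher in 77.4% of pairs. The ratio of the summed reads was 7.50, with an exact binomial 95% interval of 6.94 to 8.11 for counting error. The 5 high positive cells were cells 6, 20, 25, 32 and 39, and negative cells 33, 26 and 30 had 447, 299 and 45.1, so the sets overlapped. The log2 ratio was 3.99 without negative cell 33 and 3.52 without negative cell 26. Its lowest value with 1 cell left out was 2.51.

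Ccl2, the neighbouring monocyte chemokine gene (chromosome 11, 82035571 to 82037453, plus strand), ranged from 0 to 2414 with a median of 432 in positive cells and from 0 to 2986 with a median of 2.201 in negative cells. In 10 of 13 positive and 10 of 32 negative cells it was at or above 10. Its log2 ratio of 1.01 met the first limit, but the share of pairs, 69.95%, did not reach 70%, so it was not called. The highest value of all 45 cells was that of Il6-negative cell 2, and without that cell the log2 ratio was 1.54 with 72.2% of pairs, which would be called. In all, 9 cells had that effect when left out singly. Other cells lowered the values, and the lowest log2 ratio with 1 cell left out was 0.55 and the lowest share of pairs 67.7%.

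Cxcl1, a neutrophil chemokine, ranged from 0 to 1442 with a median of 401 in positive cells and from 0 to 1847 with a median of 2.91 in negative cells. Values of 10 or more were found in 9 of 13 and 11 of 32 cells, and Cxcl1 was not called at a log2 ratio of 1.53 and 68.4% of pairs. The highest value again belonged to Il6-negative cell 2, and without it the log2 ratio was 2.28 with 70.6% of pairs. Leaving out any 1 of 7 cells brought a call.

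Cxcl16, a transmembrane and shed chemokine, had a median of 15.1 (0 to 236) in positive cells and 0 (0 to 299) in negative cells, and 7 of 13 and 7 of 32 cells were at or above 10. It was called higher at a log2 ratio of 1.32 and 70.2% of pairs, just inside the limit, and leaving out any 1 of 27 cells ended the call, with a lowest ratio of 0.87 without positive cell 5. The ratio was 2.04 without negative cell 24 and -0.45 in the 6 positive and 26 negative cells with fewer than 4 fibroblast markers. Cxcl12, a homeostatic chemokine made by mesenchymal cells, was at or above 10 in 13 of 13 and 31 of 32 cells. Its means were 1394 ± 895 and 1322 ± 944, a log2 ratio of 0.08. Cxcl2, a neutrophil chemokine below the filter and named after its values were seen, was at or above 10 in 3 of 13 positive cells, with 249 reads in all, and in 0 of 32 negative cells, with 1 read.

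Ccl2, Ccl7 and Cxcl1, a trio also chosen after their values were seen, were counted together in each cell. At least 1 of them was at or above 10 in 11 of 13 positive cells (84.6%) and in 15 of 32 negative cells (46.9%). At least 2 were in 8 (61.5%) and 7 (21.9%), and all 3 in 5 (38.5%) and 2 (6.25%). The 2 negative cells with all 3 were cells 26 and 33. Positive cells 7 and 12, with Il6 values of 512 and 344, had none of the 3 at 10 or above. A high Il6 value was therefore found in cells without these chemokines, and the chemokines in cells without Il6.

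Across the 67 genes of the cytokine, chemokine and NF-kB target lists other than Il6, positive cells had 4 to 16 genes at or above 10, with a median of 10. Negative cells had 3 to 14, with a median of 7.5. The 2 cells with 16 genes, cells 32 and 39, had the highest Il6 values, and cell 7 had the lowest count, 4, of the positive cells. The ranges overlapped over most of their length. Divided by the genes with a read in the cell, the medians were 1.52 and 0.994 per 1000 genes.

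**Figure D3:**
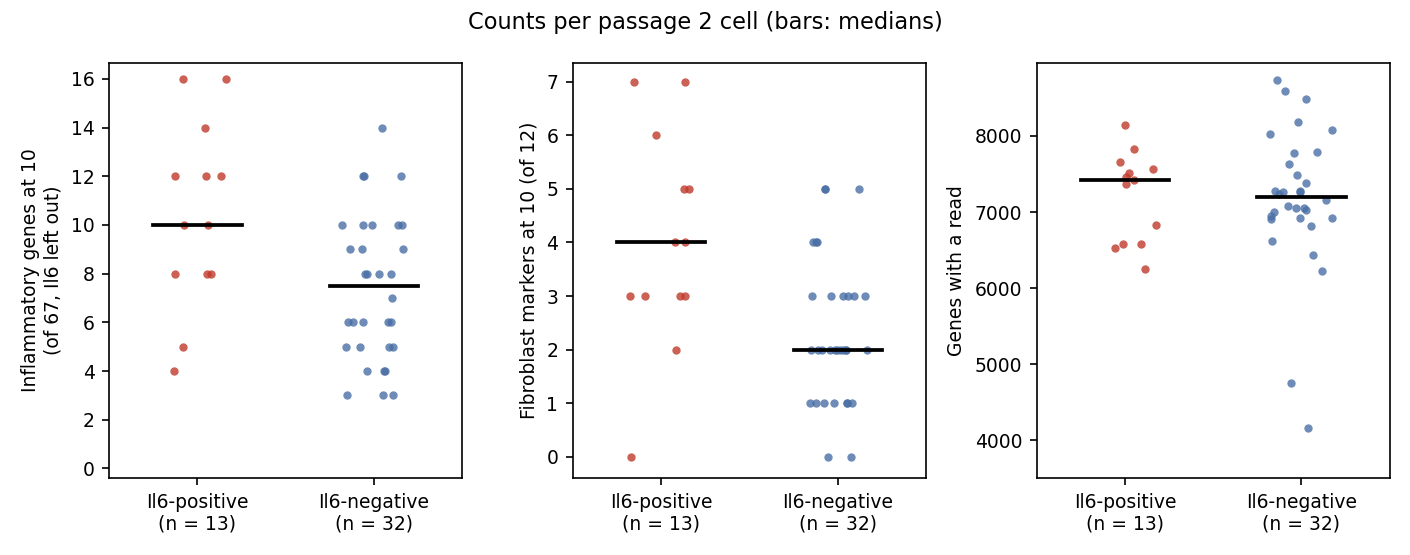
Number of inflammatory genes at or above 10 (left), number of fibroblast markers at or above 10 (middle) and number of genes with a read (right) in each passage 2 cell, with medians as bars. The medians of positive and negative cells were 10 and 7.5 inflammatory genes, 4 and 2 fibroblast markers, and 7423 and 7199.5 genes.

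No cytokine gene other than Il6 was called. Of 21 cytokines listed, Il6 among them, 3 others passed the filter, all with a ratio below 0 and a median of -1.71. Csf1, the macrophage growth factor, had means of 113 ± 94.1 in positive and 176 ± 217 in negative cells and a log2 ratio of -0.63. Tslp, an epithelial and stromal cytokine, was at or above 10 in 3 of 13 and 14 of 32 cells. Kitl, stem cell factor, was at or above 10 in 0 of 13 and 4 of 32 cells. Il1a, Il1b, Tnf, Osm and Csf2, inflammatory cytokines, had no read in any passage 2 cell. Il33 and Lif, both below the filter, were at or above 10 in 1 and 2 positive cells and in 0 and 1 negative cells.

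Genes that carry the inducing signal were not called in either direction. Of 14 receptors and adaptors compared, 7 had a ratio above 0 and 7 below, with a median of -0.14. Il1r1, the signalling receptor of interleukin-1, was at or above 10 in 13 of 13 positive and 27 of 32 negative cells, with means of 345 ± 295 and 275 ± 286 and a log2 ratio of 0.33. Tlr4, the receptor of bacterial lipopolysaccharide, was at or above 10 in 3 of 13 and 18 of 32 cells, and its log2 ratio of -1.44 with 30.05% of pairs lay just outside the limit. Myd88, the adaptor of both receptors, was at or above 10 in 6 of 13 and 6 of 32 cells, with a log2 ratio of 0.79. Traf6, the ubiquitin ligase after Myd88, had a ratio of 0.59 that turned to -0.92 without positive cell 35.

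NF-kB subunits and their inhibitors were likewise not called. Of 13 compared, 7 had a ratio above 0, and the median was 0.06. Rela, the p65 subunit, had means of 75.4 ± 105 and 70.5 ± 97.8 and a log2 ratio of 0.10. Nfkbia, which encodes IkB alpha and is itself an NF-kB target, had means of 254 ± 330 and 213 ± 215 and a log2 ratio of 0.25. Nfkbiz, the nuclear IkB protein IkB zeta that acts with NF-kB at the Il6 promoter, was at or above 10 in 10 of 13 and 24 of 32 cells, at a log2 ratio of 0.13. Nfkb1, the p105 and p50 subunit, was at or above 10 in 3 of 13 and 7 of 32 cells. Its means were 4.87 ± 8.19 and 37.2 ± 96.7, a log2 ratio of -2.70, which was -2.10 without negative cell 30. Ratios in the list ran from -3.29 for Tnip1 to 1.49 for Nfkbib, so single members differed in both directions. Transcript levels do not measure the nuclear entry of these proteins.

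Among 10 NF-kB target genes compared, 1 was called higher, 7 had a ratio above 0, and the median was 0.71. Leaving out single cells moved that median between -0.14, without positive cell 36, and 0.88. It was also near 0, at -0.11, without positive cell 32, and 0.07 without positive cell 22. With no filter on the genes, the list median was 0.27. Tnfaip2, a gene induced by tumour necrosis factor, had a median of 1.16 (0 to 699) in positive cells and 0 (0 to 98.8) in negative cells. It was at or above 10 in 5 of 13 (38.5%) and 2 of 32 (6.25%), with a log2 ratio of 3.63 and 70.7% of pairs. Tnfaip2 met the filter only through the positive cells. Its ratio was 2.33 without positive cell 5, 4.33 without negative cell 9 and 4.45 without negative cell 11, and leaving out any 1 of 7 positive cells ended the call. In the 8 positive and 26 negative cells left without the 25% of cells lowest in genes read, it was -0.19.

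The adhesion molecules and enzymes of that list had ratios of either sign. Vcam1, which binds monocytes, was at or above 10 in 10 of 13 and 19 of 32 cells with a log2 ratio of -0.89, and Icam1, a leukocyte adhesion molecule, in 3 of 13 and 7 of 32 with -0.79. Ptgs2, the inducible cyclooxygenase, was at or above 10 in 10 of 13 and 16 of 32 cells with a log2 ratio of 0.11. Sod2, the mitochondrial superoxide dismutase, was at or above 10 in 11 of 13 and 27 of 32 cells with a ratio of -0.84. None of these 4 was called.

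The receptor that binds interleukin-6 was read in negative cells alone. Il6ra (chromosome 3, 89864059 to 89913196, minus strand) had 0 reads in the 13 positive cells and 666 reads in the 32 negative cells, 8 of which (25%) were at or above 10, with a maximum of 261. Against a floor of 3 reads over the positive cells, its summed reads were at least 84.6-fold lower there. The lower limit of the exact binomial 95% interval was 68.6-fold. Both values pool reads over cells, and the interval covers counting error only. Of the 32 negative cells, 15 had an Il6ra read. Negative cell 34 held many of these reads, and without it the floor gave at least 47.5-fold lower and the exact limit 38.5-fold. The log2 ratio of Il6ra, -4.30, depends on the pseudocount, and was -3.57 without that cell. With cells split by any Il6 read against none, the ratio was 0.25. Cell 34 had 1 Il6 read and so changed sides in that split, and without it 363 of the 666 Il6ra reads remained. Cells 28, 33 and 42, with 1 Il6 read each, changed sides too and held Il6ra reads. Without each of them in turn, 630, 665 and 647 of the 666 reads remained. Cells 2, 11, 15 and 43 also had 1 or 2 Il6 reads but held no Il6ra read. The median was 0 in both sets.

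The other 12 compared members of the interleukin-6 receptor and STAT3 list were not called. Il6st, the shared signalling chain gp130, was at or above 10 in 13 of 13 and 29 of 32 cells. Its medians were 288 and 128, its log2 ratio 0.79 and its share of pairs 71.6%. Stat3, the transcription factor of the pathway, had means of 221 ± 174 and 162 ± 168 and a log2 ratio of 0.44. Socs3, a STAT3 target that inhibits gp130 signalling, was at or above 10 in 3 of 13 and 7 of 32 cells, and its log2 ratio of 0.67 turned to -0.28 without positive cell 36. The list median was 0.47, with 10 members above 0.

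Nor was any of the 9 compared regulators of cytokine mRNA life called. Zfp36, tristetraprolin, which destabilizes AU-rich mRNAs, was at or above 10 in all 13 positive and 26 of 32 negative cells, with medians of 229 and 124 and a log2 ratio of 0.76. Rc3h2, a Roquin protein, had a log2 ratio of 1.85 but 67.3% of pairs. Arid5a, which stabilizes Il6 mRNA, was at or above 10 in 2 of 13 and 6 of 32 cells.

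**Figure D4:**
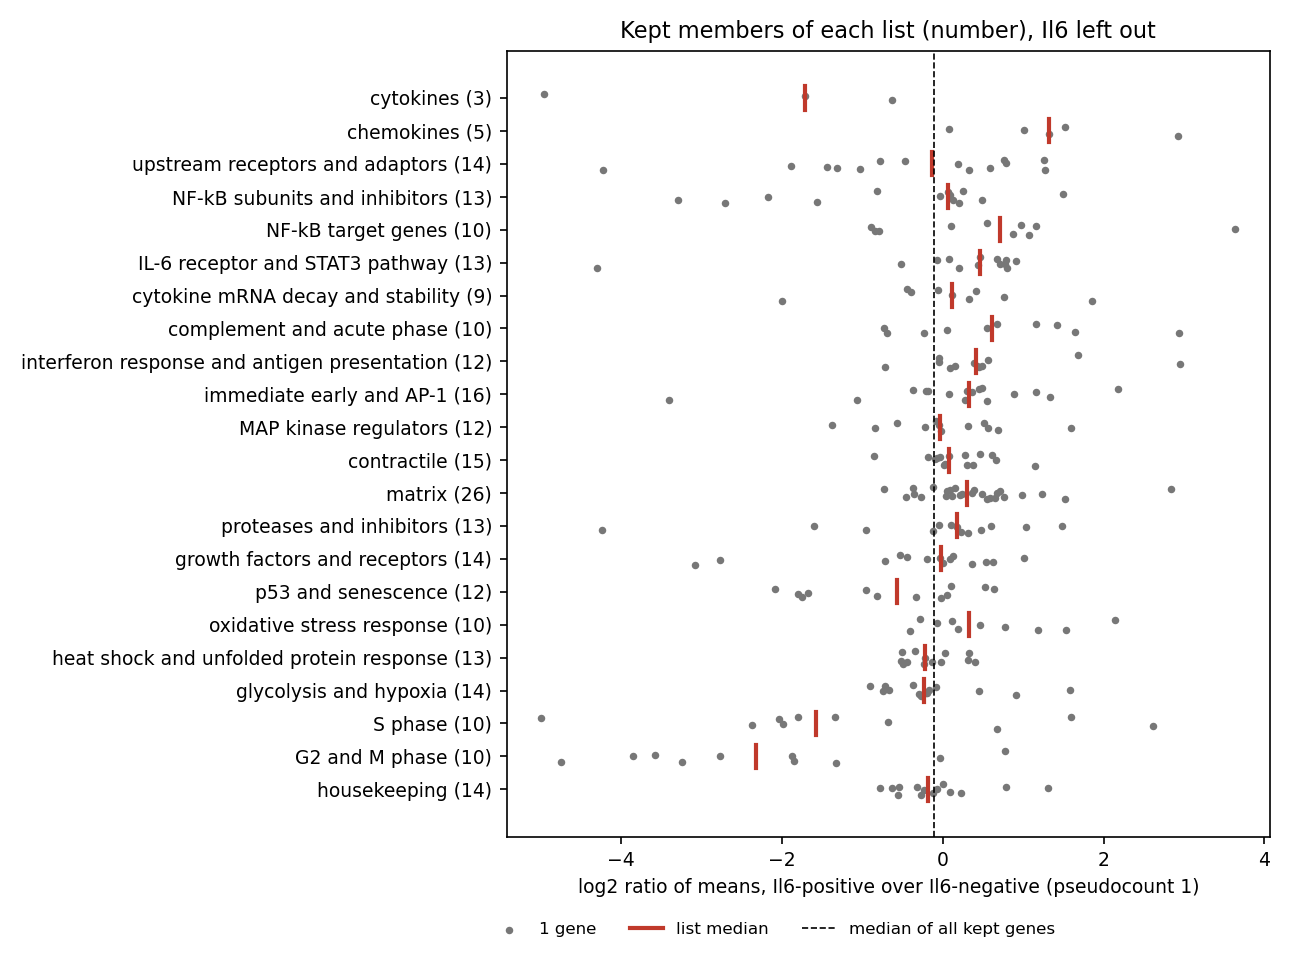
Each grey point is the log2 ratio of means of 1 compared gene, grouped by list with the number of members in brackets. Red bars are list medians and the dashed line the median of all 7447 genes, -0.11. The chemokine bar stands at 1.32 and the NF-kB target bar at 0.71, and S phase and G2 and M phase stand at -1.57 and -2.32.

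Of 16 immediate early and AP-1 genes, the fast transcription factors induced by serum and stress, 3 were called higher and 1 lower, with a list median of 0.33. Egr2, a zinc finger factor of the early growth response family, had a median of 84.6 (0 to 399.9) in positive cells and 2.98 (0 to 317) in negative cells. It was at or above 10 in 9 of 13 (69.2%) and 13 of 32 cells (40.6%), with a log2 ratio of 2.17 and 78.1% of pairs, and was called whichever cell was left out. The sets overlapped from 0 to 317. Nr4a1, an orphan nuclear receptor, had means of 214 ± 187 and 95.1 ± 167, a log2 ratio of 1.16 and 77.2% of pairs, and its ratio fell below 1 without positive cell 5, 12 or 39 (lowest 0.95). Junb, an AP-1 subunit, had means of 228 ± 229 and 90.1 ± 73.4 and a log2 ratio of 1.33, with a call that ended without any 1 of 21 cells.

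Egr1, another member of the family, had medians of 3373 and 1695 and a log2 ratio of 0.88 with 76.7% of pairs, and was not called. Fos, the partner of Jun proteins, had a log2 ratio of 0.46 and medians of 749 and 613. Atf3, a stress-induced repressor that limits cytokine genes in macrophages, was called lower. Its median was 4.63 (0 to 65.4) in positive cells and 70.5 (0 to 1133) in negative cells, and it was at or above 10 in 5 of 13 and 21 of 32 cells. The log2 ratio was -3.40 with 25.7% of pairs, between -3.84 and -3.11 whichever cell was left out.

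Complement and acute phase genes, which interleukin-6 induces in liver, had a list median of 0.61, with 1 of 10 called higher. C1s1, a protease of the first complement component, was at or above 10 in 12 of 13 (92.3%) and 16 of 32 cells (50%), with medians of 74.6 and 10.1 and a log2 ratio of 1.42, which was 2.04 without negative cell 33. Serpina3n, a protease inhibitor, was at or above 10 in 8 of 13 and 10 of 32 cells, with a log2 ratio of 1.64 and 63.7% of pairs. Hp, haptoglobin, was at or above 10 in 5 of 13 and 3 of 32 cells, with a log2 ratio of 2.94 and 68.5% of pairs. The last 2 were not called. Hp was 2.32 without positive cell 5 and 4.45 without negative cell 26. None of the 12 interferon and antigen presentation genes was called, and their median was 0.41.

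Positive cells had more fibroblast markers at or above 10, but the levels of single markers did not all go one way. Of the 12 markers, positive cells had 0 to 7 at or above 10 with a median of 4, and negative cells 0 to 5 with a median of 2. The summed value of these markers ranged from 12.1 to 3808 (median 837) and from 4.09 to 4022 (median 379.6). Of the 8 markers compared, 4 had a ratio above 0 and 4 below, with a median of 0.17. Cd34, a progenitor and endothelial surface protein that is also on adventitial fibroblasts, had the lowest ratio, -4.52, and was at or above 10 in 0 of 13 and 6 of 32 cells. The only marker called was Dcn, the matrix proteoglycan decorin, at or above 10 in 10 of 13 (76.9%) and 12 of 32 cells (37.5%) with a log2 ratio of 1.52. Clec3b and Tcf21 had no read in any cell. The number of smooth muscle markers at 10 had a median of 4 in both sets, and none of the 8 compared was called. The part of the fibroblast markers in the other results was not tested. A comparison added after seeing the data used the 6 positive and 26 negative cells with fewer than 4 of these markers. Among genes picked for display, the log2 ratio was 2.85 for Ccl7, 2.27 for Cxcl1, 1.60 for Ccl2, 2.50 for Egr2, 1.32 for Hk2 and 0.59 for Dcn. The chemokine list median was 0.80 there, against 1.32 in all cells. Of the 38 named genes that were called, 17 moved by over 1.5 times, and 1 other, Cxcl16, changed sign.

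Among matrix and remodelling genes, Timp1, an inhibitor of matrix metalloproteinases, was called higher with medians of 283 and 159 and a log2 ratio of 1.04, and any 1 of 10 cells left out ended the call (lowest ratio 0.75). Adamts1, a protease of the proteoglycan versican, had medians of 407 and 74.7 and a log2 ratio of 1.49, and was called whichever cell was left out. Pdgfrb, the platelet-derived growth factor receptor of mural cells, had medians of 494 and 147 and a ratio of 1.01, with a call that ended without any 1 of 22 cells (lowest 0.82). Besides Dcn, none of the 26 matrix genes compared was called. The collagen gene Col1a2 (1320 ± 829 and 1269 ± 894) and the fibronectin gene Fn1 (3704 ± 1590 and 4754 ± 2438) had overlapping values in the sets.

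Hk2, hexokinase 2, the first enzyme of glycolysis, ranged from 145 to 4534 with a median of 1349 in positive cells and from 0.53 to 1726 with a median of 325 in negative cells. It was at or above 10 in 13 of 13 and 25 of 32 cells, at a log2 ratio of 1.59 and 80.5% of pairs, and was called whichever cell was left out, with ratios from 1.24 to 1.74. The sets overlapped from 145 to 1726. Hk2 was the only called gene of 14 in the glycolysis and hypoxia list, whose median was -0.24. The glycolytic enzymes Pkm (151 ± 129 and 253 ± 229) and Aldoa (637 ± 414 and 675 ± 409) were not called.

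No gene of the contractile list was called among 15 compared, with a median of 0.08, and Acta2 had means of 4026 ± 2239 and 3940 ± 4436. Cell cycle genes had list medians of -1.57 for S phase and -2.32 for G2 and M phase with no member called. Of 13 positive cells, 2 (15.4%, exact interval 1.92% to 45.4%) had Mki67 or Top2a at 10 or above, against 8 of 32 (25%, interval 11.5% to 43.4%), and these intervals overlap. Without those cells 160 genes were called lower. Bax, a p53 target that promotes apoptosis, was called lower, at or above 10 in 4 of 13 and 19 of 32 cells with a log2 ratio of -1.75. The other 11 p53 and senescence genes compared, Cdkn1a and Mdm2 among them at -0.81 and -1.68, were not called.

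The 12 highest ratios among called genes that were at or above 10 in at least 50% of positive cells, with 1 direction whichever cell was left out, ran from 2.10 to 4.64. Kctd11, an adaptor of cullin 3 ubiquitin ligases that restrains Hedgehog signalling, led them. Its median was 29.3 (0 to 426) in positive cells and 0 (0 to 24.0) in negative cells, at or above 10 in 7 of 13 (53.8%) and 3 of 32 (9.38%). The log2 ratio was 4.64 with 75% of pairs, and 3.99 without positive cell 12. The means were 78.7 and 2.19, so Kctd11 met the filter mean of 10 only through the positive cells. Itga11, the integrin alpha 11 chain that binds collagen, had means of 152 ± 204 and 22.8 ± 52.6 and a log2 ratio of 2.68, and was called whichever cell was left out.

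Ccn3, a matricellular protein, was at or above 10 in 12 of 13 and 20 of 32 cells with a log2 ratio of 2.20. Crtap, a partner of collagen prolyl 3-hydroxylase, was at or above 10 in 12 of 13 and 15 of 32 cells with a ratio of 2.10. Pdia5, a protein disulfide isomerase, was at or above 10 in 9 of 13 and 5 of 32 cells with a ratio of 2.31, and 3.31 without negative cell 33. Fbxo3 had 2.36 and Utp4 2.50, and Egr2, described above, was also among the 12.

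The remaining 4 moved by over 1.5 times without 1 cell. Tent5a, a poly(A) polymerase, had a log2 ratio of 3.13 that was 0.99 without positive cell 25, and any 1 of 7 cells ended its call. Tmem47, a junction protein, had 2.87 and 1.64 without positive cell 5, with 6 cells that ended the call. Zswim6 had 2.64 and 3.58 without negative cell 42, with 7 positive cells that ended the call, and Zfhx4 had 2.30 and 3.68 without negative cell 18.

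The 12 lowest ratios ran from -5.26 to -2.42. Ykt6, a SNARE protein of Golgi traffic, had a maximum of 7.22 in positive cells and a median of 27.6 (0 to 1798) in negative cells, and was at or above 10 in 0 of 13 and 19 of 32 (59.4%). Its log2 ratio was -5.26, and -4.56 without negative cell 18. Dcxr, a carbonyl reductase of the xylulose pathway, was at or above 10 in 0 of 13 and 18 of 32 cells with a log2 ratio of -4.75, from -5.19 to -4.42 whichever cell was left out. In both genes no positive cell reached 10, while many negative cells were below 10 as well.

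Cavin2, a coat protein of caveolae, was at or above 10 in 3 of 13 and 19 of 32 cells with a ratio of -2.66, and -5.01 without positive cell 20. Pcsk5, a proprotein convertase, was at or above 10 in 3 of 13 and 21 of 32 cells with a ratio of -3.28, and -6.29 without positive cell 4. In both genes 1 positive cell held most of the positive mean.

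The same held for Uhrf1bp1l, -2.84 and -5.06 without positive cell 5, and for Msl3, a chromatin protein, -2.68 and -4.48 without positive cell 35. Ptcd3, a mitochondrial ribosome protein, had -3.54 and -4.25 without positive cell 20, and Wdr61, a subunit of the PAF1 and SKI complexes, -2.74 and -3.34 without positive cell 7. Gars, glycyl-tRNA synthetase, had -2.72, with a call that ended without any 1 of 6 positive cells, and Dhx32 -2.42, without any 1 of 4. Atf3, described above, was also among the 12.

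The genes whose values over the 45 cells ranked most like Il6 were, by Spearman's rho, Man2a2 (0.55), Ccl7 (0.53), Rpp25l (0.51), Plpp5 (0.50), Egr2 (0.49), Gm12264 (0.49), Strn3 (0.49) and Tmem245 (0.48). Man2a2, a mannosidase of N-glycan processing, was at or above 10 in 10 of 13 and 8 of 32 cells. Ccl7, Plpp5 and Egr2 are thus high by both the split and the ranking, which use the same cells. Plpp5 was called higher at a log2 ratio of 1.81 and 70.7% of pairs, and any 1 of 7 cells left out ended its call. The 24 negative cells without an Il6 read are tied in these ranks, and the correlations describe these cells only.

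The 2 passage 1 cells that reached an Il6 value of 10 differed from each other. Passage 1 cell 20, with Il6 at 11.3, had Ccl2 at 211, Cxcl1 at 141, Tnfaip2 at 69.3 and Egr2 at 91.98. Passage 1 cell 6, with Il6 at 22.7, had Ccl2 at 0.91 and Ccl7, Cxcl1, Tnfaip2 and Egr2 at 0. Il6ra was at 41.99 and 32.8 in these cells, in contrast to the 13 positive cells of passage 2, where it was at 0.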

How the data were processed

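Single cells at passage 2 (13 Il6-positive, 32 Il6-negative) were compared, each cell 1 library. The deposited table holds a signal, reads per gene over the size factor of the cell, as the authors made it. BWA, SAMtools, HTSeq, DESeq and GRCm38 are named in the submitters' processing notes, with no versions. Strand and multi-mapping were not given in the sources used here, so paralogs and overlapping genes are uncertain. The table has 39179 genes, 37607 with a GENCODE M21 symbol. Dividing each column by its smallest step gave values of which 100% lay within 0.001 of a whole number of reads (largest distance 1.87e-05). No 2 columns were identical, and no doublet caller was run.

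The filter, log2 ratio (pseudocount 1), pair share and call rule stand in the report, and compared genes held 96.9% of passage 2 reads. No test was run, as no animal or culture is named. Members and gene lists were chosen with earlier results of these data known. Named genes were the 12 highest and 12 lowest ratios at or above 10 in at least 50% of cells of the higher set, and of 1 direction when each cell was left out in turn. Further named genes were members of the inflammatory lists, called or extreme members of other lists and the 8 genes most like Il6. F3, Fgf7, Amotl2, Zmat3, Cspg4, Notch3, Sema3d, P3h3 and Cxcl2 were chosen after their values were seen. Of the 12 lowest, 1 gene is not reported here. Alternatives changed the Il6 split, pseudocount (0.1 and 10), filter, scaling (reads per total and TMM), summary, depth (thinned to 500000 reads) and cells used. The procedure was tested on simulated data in which all genes had the same extra spread between cells. That simulation had no genes that are on in some cells and off in others, so it does not cover such genes. Shares have Clopper-Pearson 95% intervals. Software was R 4.3.3 with edgeR 4.0.16 (TMM factors only) and Python 3.11.15 with matplotlib 3.10.9, scipy 1.17.1, pandas 2.3.3 and numpy 2.4.6.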

Additional observations from a re-analysis of the deposited data

How the results depend on the processing

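No paired analysis was possible because the cells carry no number that pairs them across the sets. The counts of 110 genes called higher and 87 lower moved by over 1.5 times under these settings: any Il6 read against none (21 and 24 cells), 46 and 53; at least 100 against below 10 (7 and 32), 225 and 332, with an NF-kB target median of -0.11; a filter at a mean of 50 and a read in 50% of cells, 58 and 37, with a median of -0.81; without the 25% of cells lowest in genes read (8 and 26), 214 and 223, with a median of -0.57. Without cells with Mki67 or Top2a, 160 genes were called lower. Without cells with at least 4 fibroblast markers, chosen after seeing the data, 265 and 415 were called, of which 63 and 65 were among the 110 and 87. Of the 110 and 87, 21 and 16 were called with any Il6 read against none. The chemokine median was 2.96 as a difference of mean log2 values. Among the 38 named genes that were called, 24 moved by over 1.5 times with any Il6 read against none. As a difference of mean log2 values 22 moved, and without cells with at least 4 fibroblast markers 17 did. With Il6 at least 100 against below 10, and without the 25% of cells lowest in genes read, 12 moved under each. The sign turned for 1 further gene under each of 3 settings. Il6ra was 0.25 with any read against none, Tnfaip2 -0.19 without the 25% of cells lowest in genes read, and Cxcl16 -0.45 without cells with fibroblast markers. The cause was not tested, and several of these settings leave fewer cells. Leaving out each cell gave 95 to 140 and 76 to 119 genes, a chemokine median of 1.11 to 1.54, an NF-kB target median of -0.14 to 0.88, and a difference of 2 to 3.5 inflammatory genes per cell. Reads per total, TMM and thinning moved none of the 138 named genes by over 1.5 times. After thinning, 117 genes were called higher and 61 lower, and 90 of the 110 and 51 of the 87 were among them. The ratio of 3840 of the 7447 compared genes (51.6%) moved by over 1.5 times without 1 cell or another, so the number of cells limits these values.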

Other observations

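Several genes outside the lists and the naming rule stood out in these cells and were chosen after their values were seen, so they are given as values only. Fgf7, keratinocyte growth factor, a mesenchymal growth factor for epithelia, was at or above 10 in 12 of 13 positive cells (92.3%) and 8 of 32 negative cells (25%). Its median was 212 (0 to 1551) against 0 (0 to 1293), with a log2 ratio of 1.60 and 82.1% of pairs, and it was called higher whichever cell was left out. Amotl2, an angiomotin of the Hippo pathway, was at or above 10 in 13 of 13 and 25 of 32 cells, with medians of 204 and 50.7 and a log2 ratio of 1.41. Sema3d, a secreted semaphorin, and P3h3, a collagen prolyl hydroxylase, had log2 ratios of 2.09 and 1.91. F3, tissue factor, which starts coagulation, was at or above 10 in 6 of 13 and 8 of 32 cells, with means of 448 ± 801 and 34.95 ± 98.8 and a log2 ratio of 3.64, which was 2.93 without positive cell 22 and 4.25 without negative cell 43.

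Zmat3, a p53 target, was at or above 10 in 1 of 13 and 15 of 32 cells, with a log2 ratio of -3.36, and was called lower whichever cell was left out. Of 5 compared markers of pericytes, the mural cells of small vessels, 2 were called higher. In this list 4 ratios were above 0 and 1 below, at -3.76, and the list median was 0.14. Cspg4, the NG2 proteoglycan, had a log2 ratio of 1.30, which was called except without positive cell 12 or 35 (lowest 0.95). Notch3, a mural cell receptor, had 1.72, and 1.06 without positive cell 5. Rgs5, a regulator of G protein signalling, had medians of 7561 and 1218 and a log2 ratio of 0.13, which was -0.19 without positive cell 5.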
